A study of Rattus norvegicus with 21 samples.

Results

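Immediate early transcription factor genes are transcribed within minutes of synaptic activity or another stimulus, from factors already present in the cell, and their protein products switch on later waves of genes. Of these genes, 10 were followed here in the rat dentate gyrus, the part of the hippocampal formation whose principal cells are granule neurons. They were chosen by symbol, with earlier results of these data known. Fos, Fosb and Junb are of the AP-1 family, and Egr1, Egr2 and Egr3 of the early growth response family. The others are the nuclear receptor genes Nr4a1, Nr4a2 and Nr4a3 and the neuronal gene Npas4. A gene was measured where the platform annotation gave a probe set that symbol and no other, and of several such probe sets the one with the highest mean would have been used. This held for 9 of the 10 genes, with 1 probe set each, among 14506 genes with such a probe set and 10804 that passed a filter on low signal. All 9 passed. No probe set was named for Fosb, which is not analysed here.

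Affymetrix rat Gene ST arrays were used to measure RNA of 18 wild-type male Wistar rats aged 2 months, in 6 groups of 3. Of the 5 stressed groups, which all had unpredictable chronic mild stress for 6 weeks, 4 were given an antidepressant by daily intraperitoneal injection in the last 2 weeks: agomelatine at 40 mg/kg in hydroxyethylcellulose, tianeptine at 10 mg/kg in saline, imipramine at 10 mg/kg in saline and fluoxetine at 10 mg/kg in ultra-pure water. The fifth stressed group had no drug and is called stress below, and the control group had neither stress nor drug. Whether stress and control animals were injected is not stated, so drug, vehicle and injection cannot be told apart in a comparison of a drug with stress, and neither can drug and dose between agomelatine and the other drugs. Tianeptine and imipramine are tricyclic compounds, fluoxetine is a serotonin reuptake inhibitor, and agomelatine is an agonist at melatonin receptors and an antagonist at the serotonin receptor 5-HT2C. Each control animal was run on 2 arrays, averaged here. The granule neuron marker Prox1 had group means between 11.26 and 11.70 on a log2 scale with an array median between 7.99 and 8.10. Whole tissue was measured, so fewer cells of a type and less RNA per cell cannot be told apart. All values below are log2 expression, differences are differences of group means, and a gene is said to rise or fall only at an adjusted p under 0.05 by limma, adjusted over all 10804 genes.

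In neurons, calcium entry through NMDA receptors and voltage-gated channels activates kinases that phosphorylate CREB, which binds cyclic AMP response elements (CRE, letters TGACGTCA, with the shorter core TGACG), and ternary complex factors, which act with SRF at CArG boxes. Promoters of immediate early genes often hold such elements. Fos and Junb proteins pair with Jun-type proteins to form AP-1. Egr proteins bind GC-rich sites through zinc fingers. Nr4a proteins are orphan nuclear receptors that bind the NBRE element (AAAGGTCA). Npas4 is a basic helix-loop-helix factor that responds to calcium entry in neurons and regulates inhibitory synapses. In the dentate gyrus these genes are known for induction by seizures, novelty and learning.

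Start regions of 7 of the 10 genes were in the RefSeq table of assembly GRCr8, each from 250 bases before to 50 bases after the transcription start. Those of the 3 genes that rose in this study are printed first, since the results turn on them, and those of Egr1 and Egr2, which did not rise, are set beside them. Sequences run 5′ to 3′ on the gene's strand. Capitals mark a CRE core on either strand (read as CGTCA where it lies on the opposite strand) or a CArG box. The regions are chr7:134259888-134260187 (plus strand) for Nr4a1, chr3:62104838-62105137 (minus strand) for Nr4a2, chr1:211716053-211716352 (minus strand) for Npas4, chr18:26736828-26737127 (plus strand) for Egr1 and chr20:21054392-21054691 (minus strand) for Egr2.
Nr4a1: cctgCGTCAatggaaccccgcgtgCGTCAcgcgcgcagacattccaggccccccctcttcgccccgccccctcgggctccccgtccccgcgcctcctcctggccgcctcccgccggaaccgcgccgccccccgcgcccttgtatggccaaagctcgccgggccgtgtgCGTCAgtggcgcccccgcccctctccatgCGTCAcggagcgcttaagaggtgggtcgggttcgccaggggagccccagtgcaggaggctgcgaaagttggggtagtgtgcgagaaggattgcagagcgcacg
Nr4a2: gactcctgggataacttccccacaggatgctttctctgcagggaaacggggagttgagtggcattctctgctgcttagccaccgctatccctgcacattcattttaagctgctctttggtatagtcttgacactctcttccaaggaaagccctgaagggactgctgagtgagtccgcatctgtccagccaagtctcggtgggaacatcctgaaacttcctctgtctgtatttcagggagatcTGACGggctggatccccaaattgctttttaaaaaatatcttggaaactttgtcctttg
Npas4: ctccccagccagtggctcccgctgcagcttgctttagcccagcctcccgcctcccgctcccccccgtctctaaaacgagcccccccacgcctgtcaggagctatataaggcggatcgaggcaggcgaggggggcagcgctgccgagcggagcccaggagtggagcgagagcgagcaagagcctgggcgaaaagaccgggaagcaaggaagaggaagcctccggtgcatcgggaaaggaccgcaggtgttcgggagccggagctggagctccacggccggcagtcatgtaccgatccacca
Egr1: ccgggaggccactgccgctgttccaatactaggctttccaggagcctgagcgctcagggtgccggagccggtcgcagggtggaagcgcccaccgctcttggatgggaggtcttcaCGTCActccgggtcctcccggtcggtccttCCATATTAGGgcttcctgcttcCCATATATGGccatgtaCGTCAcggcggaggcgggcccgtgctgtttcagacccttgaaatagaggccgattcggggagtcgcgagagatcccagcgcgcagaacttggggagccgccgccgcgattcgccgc
Egr2: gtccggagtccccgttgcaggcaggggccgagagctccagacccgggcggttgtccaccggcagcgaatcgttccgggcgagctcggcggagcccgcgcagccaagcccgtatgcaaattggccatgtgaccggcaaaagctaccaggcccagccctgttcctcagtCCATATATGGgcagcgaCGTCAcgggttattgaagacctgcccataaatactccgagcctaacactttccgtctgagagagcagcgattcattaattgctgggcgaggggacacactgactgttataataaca

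Both strands were searched for the CRE, its core, which the CRE contains, CArG boxes, the AP-1 element (TGANTCA), the NBRE element and the EGR element (GCGGGGGCG). Nr4a1 held 4 cores, at -246, -226, -82 and -53 from the start, and 1 EGR element. Nr4a2 held 1 core, 8 bases before the start, and Npas4 held none of the elements. Egr1 held 2 cores and 2 CArG boxes, and Egr2 1 of each. Junb held 1 core, and Fosb none. The core was in 22.0% of 27457 promoters of the same length, CArG boxes in 1.64%, the EGR element in 2.78%, the AP-1 element in 7.33%, the CRE in 1.91% and the NBRE element in 1.29%. Cores were found in genes that rose in the comparisons below (Nr4a1 and Nr4a2) and in genes that did not (Egr1, Egr2 and Junb). A match is a description of the sequence only, and elements outside these windows around the annotated starts were not searched.

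Among the 9 genes, 3 differed across the 6 groups by limma's moderated F test: Npas4 (adjusted p = 0.00517), Nr4a1 (adjusted p = 0.0118) and Nr4a2 (adjusted p = 0.0245). Over all tested genes 6.76% were called by that test. The other 6 genes had adjusted p-values between 0.374 and 0.518. The mean was highest in the agomelatine group for 6 of the 9 genes (Fos, Junb, Nr4a1, Nr4a2, Nr4a3 and Npas4) and lowest there for 1, Egr3. In the control group it was lowest for 3 genes, Egr1, Nr4a1 and Nr4a3. The share of all genes with their highest or lowest mean in a group is not given here, so these counts are no result about the members as a set. Agomelatine stood apart in many genes: 9.39% to 13.5% of all genes were called when it was set against control or another drug.

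**Figure D1:**
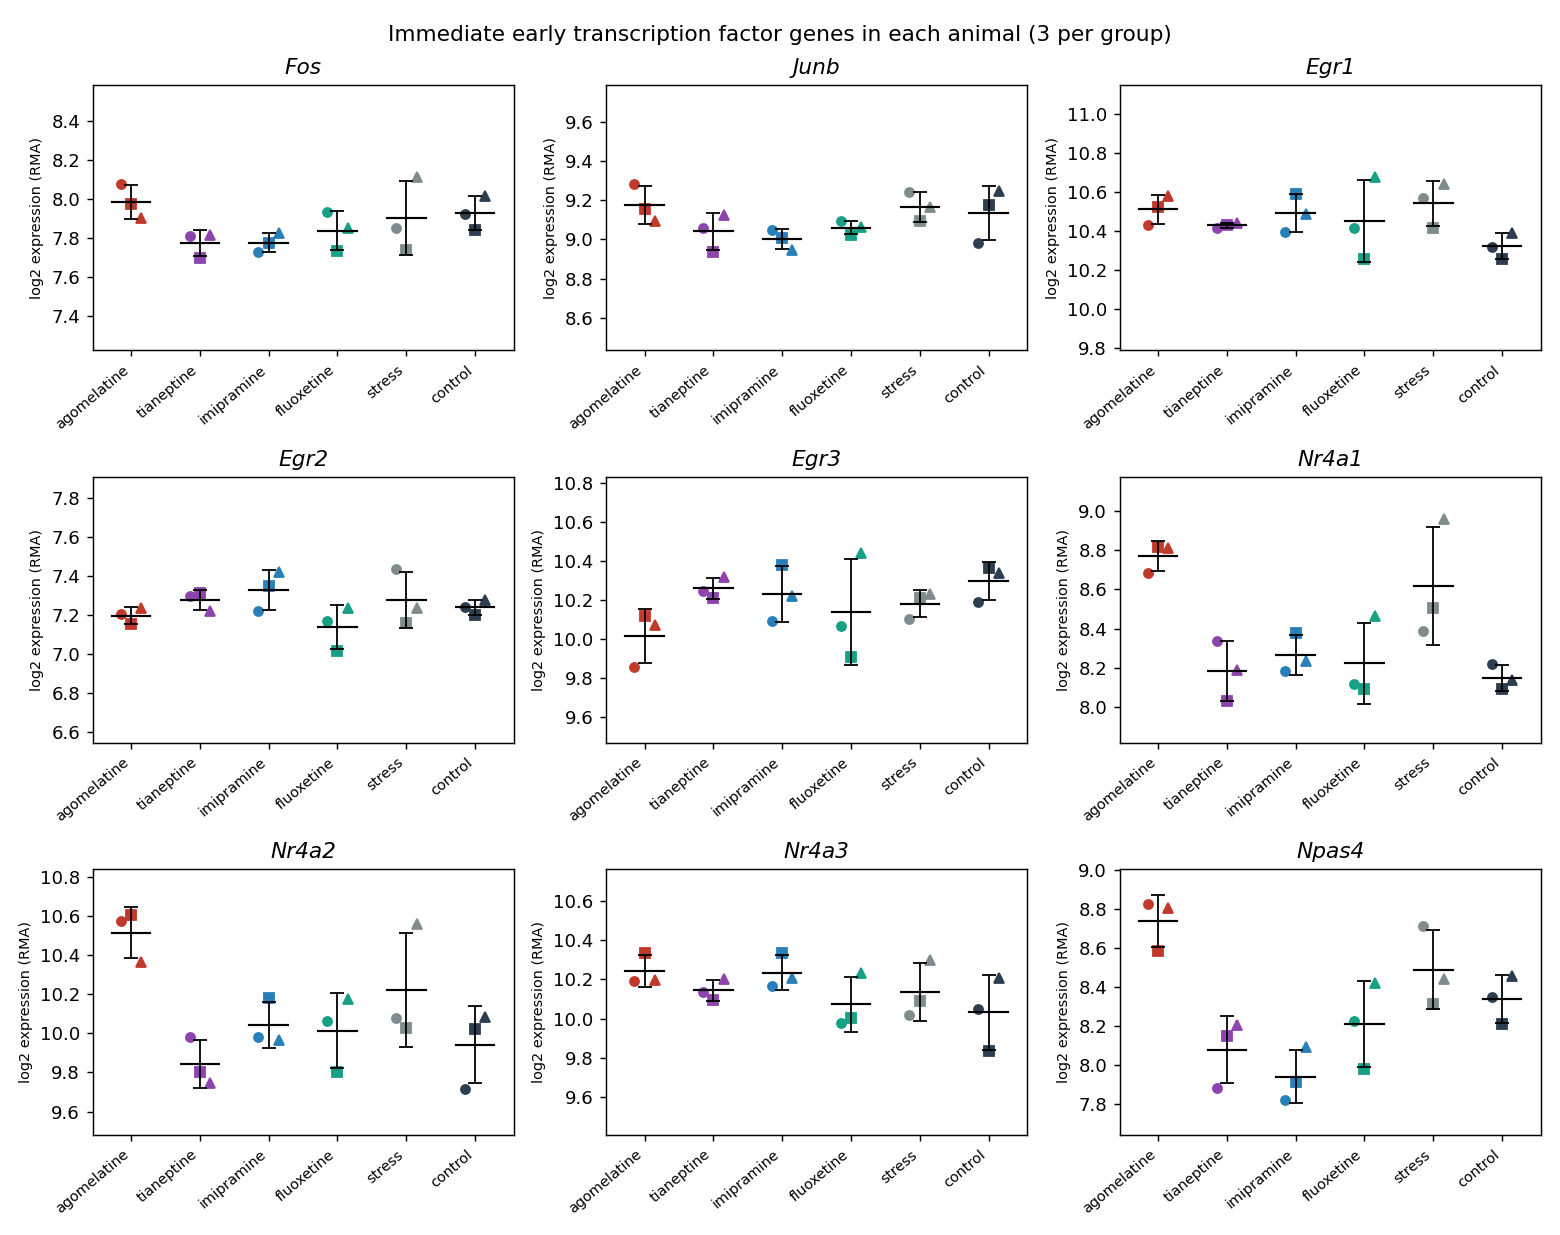
Log2 expression of the 9 measured genes in each of the 18 animals, by group. Points are animals (circle 1, square 2, triangle 3), the horizontal line is the group mean and the bar is ± SD (n = 3), and every panel spans the same log2 range. For Nr4a1 and Npas4 all 3 agomelatine animals, at 8.58 or higher, lay above all animals of the tianeptine, imipramine, fluoxetine and control groups. In 5.55% of all genes they lay above all tianeptine, imipramine and fluoxetine animals, and for control the share is not given.

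The Nr4a proteins bind DNA as monomers or dimers. Nr4a1 (Nur77) was at 8.68, 8.82 and 8.81 in agomelatine animals 1, 2 and 3, at 8.33, 8.03 and 8.19 in tianeptine, at 8.18, 8.38 and 8.23 in imipramine, at 8.12, 8.09 and 8.46 in fluoxetine, at 8.39, 8.50 and 8.96 in stress and at 8.22, 8.09 and 8.14 in control animals. The agomelatine animals were above every animal of the other drug groups and of control and overlapped with stress, where stress 3 was the highest of all 18 animals. In 5.55% of all genes the agomelatine animals lay above every animal of the other drug groups. For control the share is not given here. The group means ran in the order agomelatine (8.77 ± 0.08), stress (8.62 ± 0.30), imipramine (8.26 ± 0.10), fluoxetine (8.22 ± 0.21), tianeptine (8.18 ± 0.15) and control (8.15 ± 0.07; SD, n = 3), and no 2 neighbours in that order differed by the test.

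Nr4a2 (Nurr1), known for its part in making dopamine neurons, was at 10.58, 10.60 and 10.37 in agomelatine animals, at 9.98, 9.80 and 9.74 in tianeptine, at 9.98, 10.18 and 9.97 in imipramine, at 10.06, 9.80 and 10.18 in fluoxetine, at 10.08, 10.03 and 10.56 in stress and at 9.72, 10.02 and 10.08 in control animals. As with Nr4a1, the agomelatine animals overlapped with the stress group and with no other, and stress 3 again stood above the rest of its group. The share of all genes given for Nr4a1 applies here too. The order of the means was agomelatine (10.52 ± 0.13), stress (10.22 ± 0.29), imipramine (10.04 ± 0.12), fluoxetine (10.02 ± 0.19), control (9.94 ± 0.20) and tianeptine (9.84 ± 0.12; SD, n = 3), again with no call between neighbours. Nr4a3 (Nor1), the third receptor of the family, spanned less: it was at 10.19, 10.34 and 10.20 in agomelatine, against 10.02, 10.09 and 10.30 in stress and 10.05, 9.83 and 10.21 in control animals. Its means lay between 10.03 in control and 10.24 in agomelatine animals, its groups overlapped, and it was called in 0 of the 17 comparisons (smallest adjusted p = 0.161, in agomelatine against control).

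Npas4 was at 8.83, 8.58 and 8.81 in agomelatine animals, at 7.88, 8.15 and 8.20 in tianeptine, at 7.82, 7.91 and 8.09 in imipramine, at 8.23, 7.98 and 8.42 in fluoxetine, at 8.71, 8.32 and 8.44 in stress and at 8.35, 8.21 and 8.46 in control animals. All animals of the tianeptine and imipramine groups were below all stress and all control animals, and the agomelatine animals were above all but those of the stress group. With 3 animals a group such gaps were common: 11.2% of all genes had one in tianeptine against stress and 19.7% in imipramine against stress. For a drug against control, and for agomelatine against a single drug, the share is not given here. The means ran in the order agomelatine (8.74 ± 0.13), stress (8.49 ± 0.20), control (8.34 ± 0.12), fluoxetine (8.21 ± 0.22), tianeptine (8.08 ± 0.17) and imipramine (7.94 ± 0.14; SD, n = 3). Neighbours in this order were not told apart by the test.

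Neither AP-1 gene passed the test as set out above. Fos, the classical marker of recently active neurons, was at 8.08, 7.98 and 7.90 in agomelatine, at 7.81, 7.70 and 7.82 in tianeptine, at 7.73, 7.78 and 7.83 in imipramine, at 7.93, 7.73 and 7.85 in fluoxetine, at 7.86, 7.74 and 8.11 in stress and at 7.93, 7.84 and 8.02 in control animals. All tianeptine and imipramine animals were below all agomelatine and all control animals. Gaps of this kind were common in other comparisons of 3 animals a group, as set out for Npas4. For these comparisons of Fos the share of all genes is not given here. Fos was called in 0 of the 17 comparisons, the smallest adjusted p being 0.0765, in agomelatine against the mean of the other 3 drugs (0.19 ± 0.07, SE). Under 2 of 24 alternatives it passed there, with equal array medians (with 19.4% of all genes called) and with a second quantile normalisation (with 21.2% called), the smallest adjusted p being 0.0387. Junb, an AP-1 partner that restrains Jun activity, had its lowest group mean in imipramine animals and its highest, 9.18 ± 0.10 (SD, n = 3), in agomelatine animals, and was not called in any comparison (smallest adjusted p = 0.117).

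Of the Egr genes, Egr1 (Zif268), linked to the maintenance of long-term potentiation in the dentate gyrus, was at 10.43, 10.52 and 10.58 in agomelatine animals, at 10.57, 10.42 and 10.64 in stress and at 10.32, 10.26 and 10.39 in control animals, so that agomelatine and stress animals all lay above the control animals. The tianeptine and imipramine animals did so too, and fluoxetine animals overlapped with control. These gaps depended on the control arrays, since Egr1 was lower on the repeat than on the first array in control animals 1, 2 and 3 (mean difference -0.13). On the first arrays alone control animals were at 10.405, 10.331 and 10.429. These values overlapped with stress, tianeptine and imipramine animals, and lay just below the lowest agomelatine animal (10.433). Tianeptine animals lay close together at a mean of 10.43 ± 0.01 (SD, n = 3), and fluoxetine animals spread from 10.26 to 10.68. Egr3, which acts downstream of MAP kinase signalling, was at 9.86, 10.12 and 10.07 in agomelatine animals, at 10.25, 10.21 and 10.32 in tianeptine and at 10.19, 10.37 and 10.34 in control animals, and the agomelatine animals lay below all animals of the tianeptine and control groups. Such gaps were common in other comparisons of 3 animals a group, as set out for Npas4. For these 2 comparisons of Egr3 the share of all genes is not given here. The difference of Egr3 in agomelatine against control was -0.28 ± 0.11 (SE, adjusted p = 0.105), and it was called in no comparison. Egr2 (Krox20), best known for myelination in Schwann cells, had group means between 7.14 in fluoxetine and 7.33 in imipramine animals, close to the filter at 7.17, and values this low are compressed on arrays.

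In animals given agomelatine, Nr4a1, Nr4a2 and Npas4 rose against each group but stress. Against tianeptine the 3 genes were higher by 0.59 ± 0.13 (Nr4a1, adjusted p = 0.00573), 0.67 ± 0.13 (Nr4a2, adjusted p = 0.0032) and 0.66 ± 0.12 (Npas4, adjusted p = 0.00261; SE). They were 3 of 9 members called, all higher, where 13.5% of all tested genes were called and 6.51% were called higher. Against imipramine the differences were 0.51 ± 0.13 for Nr4a1 (adjusted p = 0.0165), 0.47 ± 0.13 for Nr4a2 (adjusted p = 0.0298) and 0.80 ± 0.12 for Npas4 (adjusted p = 0.000922), the last a 1.74-fold difference, with 9.39% of all genes called and 5.04% called higher. Leaving out imipramine 1 or imipramine 3 left only Npas4 called in that comparison.

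Against fluoxetine Nr4a1 was higher by 0.55 ± 0.13 (adjusted p = 0.00943), Nr4a2 by 0.50 ± 0.13 (adjusted p = 0.0189) and Npas4 by 0.53 ± 0.12 (adjusted p = 0.0104), where 11.8% of all genes were called and 5.07% were called higher. Without fluoxetine 2, the animal with the lowest Nr4a1, Nr4a2 and Npas4 of its group, only Nr4a1 remained called, and in a fit on these 2 groups alone 0 of 9 genes were called (adjusted p = 0.053 for Nr4a1). Against control Nr4a1 was higher by 0.62 ± 0.13 (1.54-fold, adjusted p = 0.00544), Nr4a2 by 0.57 ± 0.13 (1.49-fold, adjusted p = 0.0106) and Npas4 by 0.40 ± 0.12 (1.32-fold, adjusted p = 0.0479), with 9.59% of all genes called and 5.28% called higher. The call of Npas4 against control ended in 13 of 20 alternatives, with adjusted p up to 0.196, and without control 1 only Nr4a1 was called. For the fits above that left out animals or groups, the share of all genes called is not given here. Agomelatine enters every one of these comparisons with the same 3 animals, so they are not independent of each other.

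**Figure D2:**
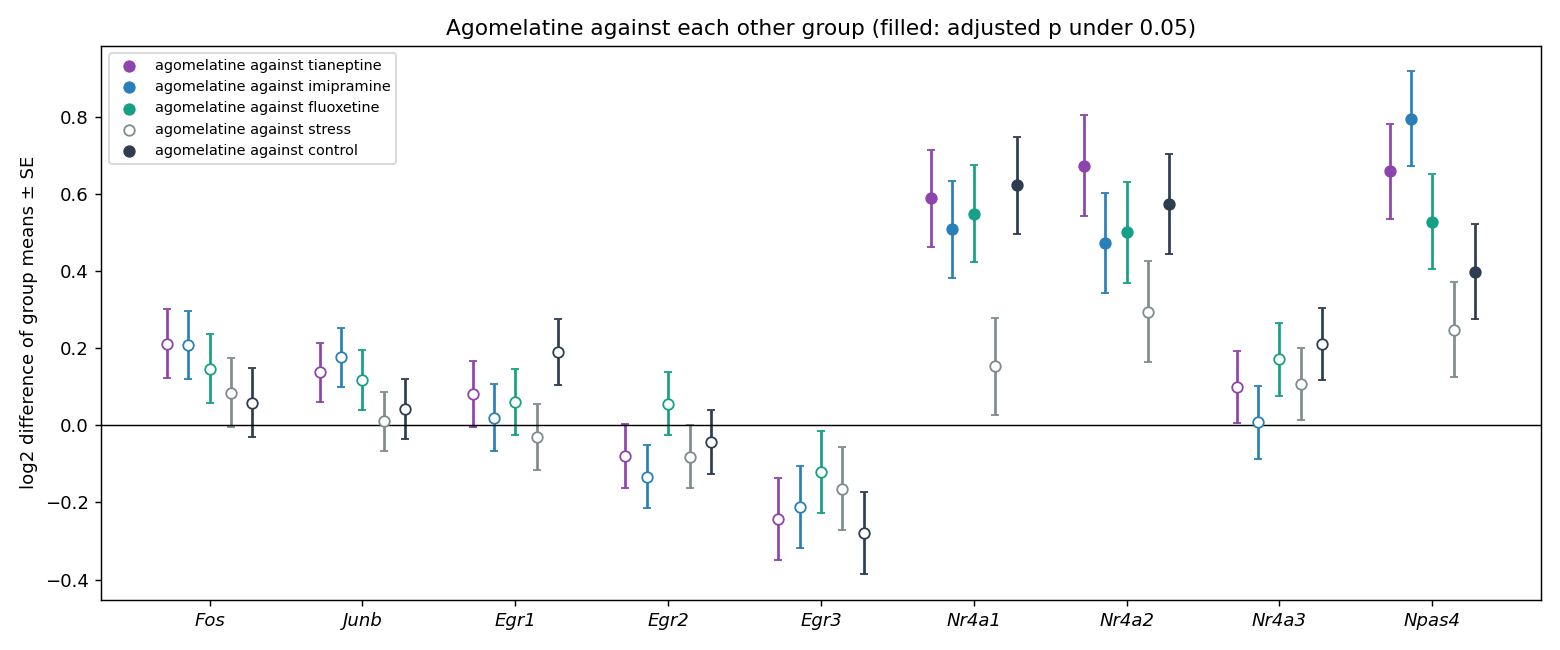
Log2 difference of group means (± SE) for agomelatine against tianeptine, imipramine, fluoxetine, stress and control, from left to right within each gene. Filled points have an adjusted p under 0.05: Nr4a1, Nr4a2 and Npas4 are filled in each comparison but that with stress, and no other gene is filled.

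Agomelatine against stress called 0 of the 9 members by limma, with 1 member and 27.0% of all genes at an unadjusted p under 0.05, where 10.8% of all tested genes were called. Nr4a2 differed by 0.29 ± 0.13 (adjusted p = 0.151, unadjusted 95% interval 0.02 to 0.57), Npas4 by 0.25 ± 0.12 (adjusted p = 0.204, interval -0.01 to 0.51) and Nr4a1 by 0.15 ± 0.13 (adjusted p = 0.465, interval -0.11 to 0.42). These intervals are wide, so equal levels were not shown. Without stress 3 the difference of Nr4a2 was 0.46 and it was called (adjusted p = 0.0301). Against the mean of tianeptine, imipramine and fluoxetine the differences in agomelatine animals were 0.55 ± 0.10 for both Nr4a1 (adjusted p = 0.00135) and Nr4a2 (adjusted p = 0.00176) and 0.66 ± 0.10 for Npas4 (adjusted p = 0.000268), with 19.1% of all genes called. All 3 agomelatine animals lay above all 9 animals of the other drug groups for each of these genes, as in 5.55% of all genes. Since the stress mean cancels, each of these is also the difference between the response to agomelatine and the mean response to the other drugs, both set against stress.

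Stress without a drug was set against control to see what 6 weeks of stress did to these genes. Nr4a1 was at 8.62 ± 0.30 in stress and 8.15 ± 0.07 in control animals (SD, n = 3), higher by 0.47 ± 0.13 (SE), and the 3 stress animals were all higher than the 3 control animals. Egr1 differed by 0.22 ± 0.09, without overlap on the averaged but not the first control arrays, and Nr4a2 by 0.28 ± 0.13 with overlap. None was called: limma gave an adjusted p of 0.828 to each, 3 of 9 members and 5.4% of all genes had an unadjusted p under 0.05, and 0.0% of all genes were called. The median over the 9 genes was 0.11 and 7 were above 0, against a median of 0.02 and 60.4% above 0 over all tested genes. Groups did not overlap in 2 of the 9 genes and in 13.1% of all genes. The value of Nr4a1 depended on the control arrays, since it was lower on the repeat than on the first array by 0.22 and 0.35 in control animals 1 and 2 (mean difference -0.19, unadjusted p = 0.0436, adjusted p = 0.219, with 21.5% of all genes at an unadjusted p under 0.05). It was 0.38 against the first arrays and 0.56 against the repeat arrays, and only the value against the repeat arrays passed (adjusted p = 0.0465), where 1.17% of all genes were called, against 0.0% with the first arrays. Without stress 3 the difference was 0.30 for Nr4a1 and 0.11 for Nr4a2.

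Tianeptine, imipramine and fluoxetine, all at 10 mg/kg, had lower values of Nr4a1, Nr4a2 and Npas4 than stress. Nr4a1 differed by -0.44 ± 0.13 with tianeptine, -0.35 ± 0.13 with imipramine and -0.40 ± 0.13 with fluoxetine (SE), and Npas4 by -0.41 ± 0.12, -0.55 ± 0.12 and -0.28 ± 0.12 in the same order. Nr4a2 differed by -0.38 ± 0.13, -0.18 ± 0.13 and -0.21 ± 0.13. None passed: limma called 0 of 9 members and 0.0% of all genes in each of these comparisons, with 3 members (tianeptine), 3 (imipramine) and 2 (fluoxetine) at an unadjusted p under 0.05, which 5.06%, 10.0% and 5.01% of all genes had, and the smallest adjusted p was 0.33 (Npas4 with imipramine). With fluoxetine all 9 members were below stress (median -0.11, against -0.01 over all genes), where 46.0% of all genes were above it. With tianeptine 7 of 9 were below stress (median -0.13, against -0.02) and with imipramine 6 of 9 (median -0.12, against -0.02). For these 2 drugs the share of all genes is not given here. Groups did not overlap in 3 of 9 members with tianeptine, 3 of 9 with imipramine and 0 of 9 with fluoxetine, and in 11.2%, 19.7% and 10.8% of all genes. The mean of the 3 drugs against stress gave -0.41 ± 0.10 for Npas4 and -0.40 ± 0.10 for Nr4a1 (adjusted p = 0.769 each), with 4 members and 5.86% of all genes at an unadjusted p under 0.05. It called 0 members and 0.00926% of all genes (1 gene, Dusp1). The same stress animals enter all of these differences and stress against control, so a high value in stress alone would move all of them, and stress 3 was the highest animal for Nr4a1. Without stress 3 the difference of Nr4a1 was between -0.18 and -0.26 for the 3 drugs.

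**Figure D3:**
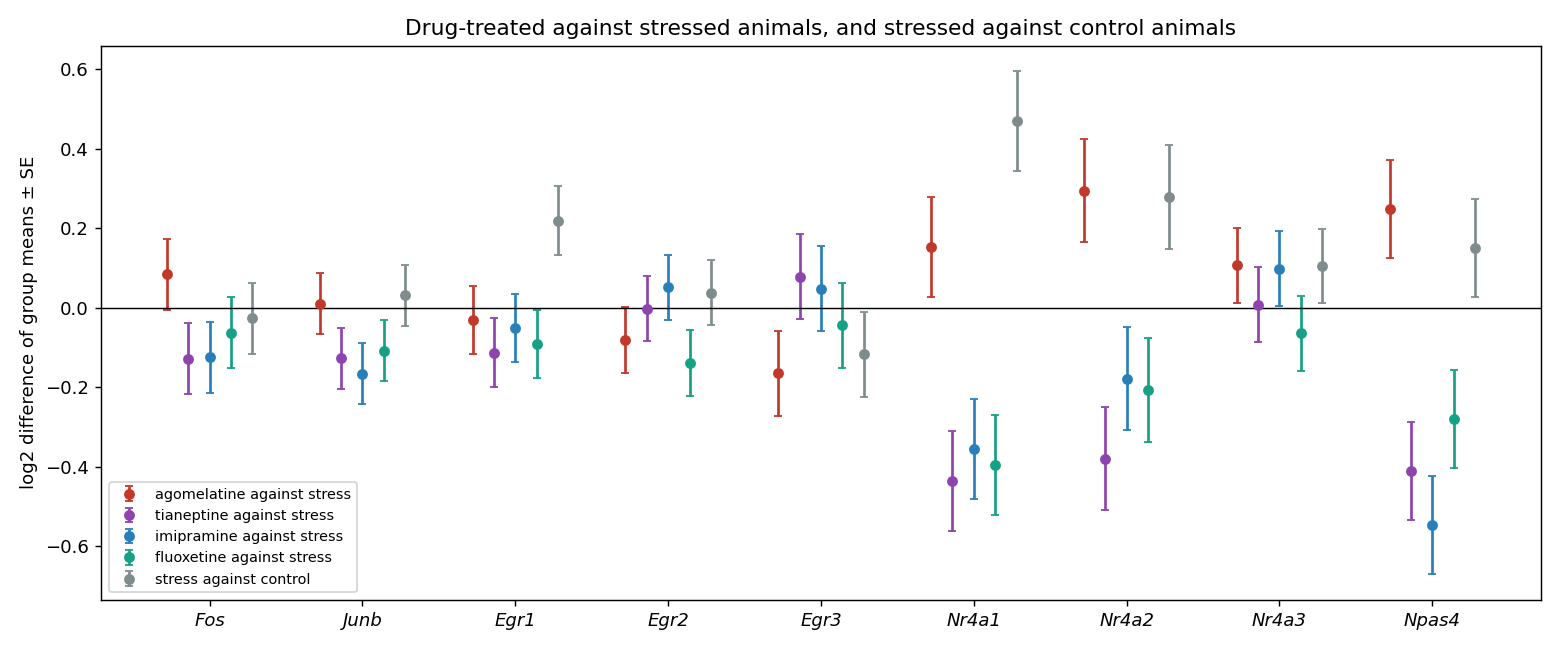
Log2 difference of group means (± SE) for agomelatine, tianeptine, imipramine and fluoxetine against stress and for stress against control, from left to right within each gene. No difference in this plot passed the test. Tianeptine, imipramine and fluoxetine lie between -0.55 and -0.18 for Nr4a1, Nr4a2 and Npas4, and agomelatine between 0.15 and 0.29.

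Against control, the same 3 drugs called 0 members: tianeptine, with 1 member and 4.04% of all genes at an unadjusted p under 0.05, and fluoxetine, with 0 members and 4.89%, called 0.0% of all genes, and imipramine, with 2 members and 8.27%, called 0.0185%. Npas4 was at 8.08 ± 0.17 in tianeptine, 7.94 ± 0.14 in imipramine and 8.21 ± 0.22 in fluoxetine animals, against 8.34 ± 0.12 in control animals (SD, n = 3). Its difference from control was -0.26 ± 0.12 with tianeptine, -0.40 ± 0.12 with imipramine (adjusted p = 0.391) and -0.13 ± 0.12 with fluoxetine (SE). Nr4a1 and Nr4a2 lay within 0.12 of control in all 3 groups.

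The 3 drugs given at the same dose and for the same time were also set against each other, in 3 pairs. Imipramine and tianeptine, both tricyclic compounds, differed by at most 0.20 among the 9 members (Nr4a2, 0.20 ± 0.13, unadjusted 95% interval -0.07 to 0.47, adjusted p = 0.84). Npas4 differed by -0.14 ± 0.12 between them (interval -0.40 to 0.12, adjusted p = 0.888). Fluoxetine against imipramine had its largest difference in Npas4, 0.27 ± 0.12 (adjusted p = 0.441), and fluoxetine against tianeptine in Nr4a2, 0.17 ± 0.13 (adjusted p = 0.998). In each pair limma called 0 members and 0.0% of all genes, with 2 members at an unadjusted p under 0.05 in fluoxetine against imipramine and 0 in the other pairs, against 11.0% of all genes in that pair, 4.45% in fluoxetine against tianeptine and 6.15% in imipramine against tianeptine. The intervals do not show equal levels. With array weights Egr2, at -0.25 in fluoxetine against imipramine, passed (adjusted p = 0.0404).

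Of other genes in the pathway, 4 lists were followed: 22 other immediate early regulators (18 tested), 30 activity-regulated effector genes (28 tested), 34 upstream genes of calcium, kinase, CREB and SRF signalling (26 tested) and 15 binding partners (13 tested). Crem and Srf are in both the first and the third list, and Jun in the first and the fourth. In agomelatine against the mean of the other 3 drugs, the effectors had 6 genes higher and 3 lower of 28 and the upstream genes 1 higher and 7 lower of 26, where 9.09% of all genes were called higher and 10.0% lower. The other regulators had 1 higher and 2 lower of 18, and the partners 0 higher and 1 lower of 13. The list medians were 0.03 for effectors, -0.09 for upstream genes, -0.01 for other regulators and -0.04 for partners, against 0.14 for the 9 members and -0.01 for all tested genes.

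Among the effectors the genes that rose were Dusp5, a nuclear phosphatase of ERK (0.79 ± 0.10, adjusted p = 5.37e-05), Arc, a synaptic protein gene (0.37 ± 0.12), Dusp6, an ERK phosphatase of the cytoplasm (0.34 ± 0.10), Dusp1, a MAP kinase phosphatase (0.33 ± 0.09), Homer1, a postsynaptic scaffold (0.29 ± 0.09), and Rheb, an activator of mTORC1 (0.18 ± 0.05; SE). Those that fell were Spry2, an inhibitor of receptor tyrosine kinase signalling (-0.34 ± 0.05), Nrn1, a surface protein of growing neurites (-0.34 ± 0.06), and the kinase gene Pim1 (-0.19 ± 0.06). Of the upstream genes Crem, a relative of CREB, rose (0.26 ± 0.08). Rps6ka2, a ribosomal S6 kinase (-0.33 ± 0.06), Mef2d (-0.30 ± 0.08), Elk1, a ternary complex factor (-0.29 ± 0.07), the CREB coactivator genes Crtc2 (-0.27 ± 0.08) and Crtc1 (-0.20 ± 0.07), and Rps6ka5, the gene of the CREB kinase MSK1 (-0.18 ± 0.06), were among the 7 that fell. Maff (-0.23 ± 0.07) and Jun (-0.17 ± 0.05), basic leucine zipper factors, fell as well. By adjusted p these values, other than Dusp5, lay between 0.000258 and 0.0437.

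Against stress, agomelatine had 4 effectors called, with 4.18% of all genes higher and 6.58% lower. Dusp5 was at 9.02 ± 0.26 in agomelatine and 8.27 ± 0.18 in stress animals (SD, n = 3), higher by 0.75 ± 0.12 (SE, adjusted p = 0.00123), and Homer1 was higher by 0.46 ± 0.11 (adjusted p = 0.011). Spry2 (-0.25 ± 0.06) and Nrn1 (-0.23 ± 0.07) fell, as did Maff (-0.27 ± 0.08), Rps6ka2 (-0.47 ± 0.07) and Elk1 (-0.28 ± 0.08). Dusp1, Arc, Dusp6 and Rheb, higher than with the other drugs, were not called against stress. Dusp1 was lower than in stress, at -0.29 ± 0.11 (SE, adjusted p = 0.102). Means in agomelatine and stress animals were 9.60 and 9.57 for Arc, 9.26 and 9.25 for Dusp6, and 11.09 and 10.90 for Rheb. No binding partner was called, and the retinoid X receptor gene Rxra, which pairs with Nr4a1 and Nr4a2, was at -0.29 ± 0.10 (adjusted p = 0.0656). Dusp5 thus passed against stress, where Nr4a1, Nr4a2 and Npas4 did not. Whether it differed from them in response was not tested.

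With the other drugs Dusp1 had the largest difference from stress in the 4 lists: it was at 9.10 ± 0.08 in tianeptine, 9.17 ± 0.13 in imipramine and 9.22 ± 0.23 in fluoxetine, against 9.79 ± 0.11 in stress animals (SD, n = 3). Only the mean of the 3 drugs passed, at -0.62 ± 0.09 (SE, adjusted p = 0.0233). Arc was at -0.38 ± 0.14 with fluoxetine and -0.33 ± 0.14 with imipramine, and Dusp6 at -0.40 ± 0.12 with tianeptine and -0.31 ± 0.12 with fluoxetine, none called. In the other 3 lists, examples of a drug against stress were Cebpb, a leucine zipper factor gene (0.23 ± 0.08 with imipramine), Klf10 (-0.20 ± 0.09 with fluoxetine), Rps6ka2 (-0.20 ± 0.07 with fluoxetine), Map2k2, a MAP kinase kinase gene (-0.16 ± 0.10 with imipramine), and Rxra (-0.30 ± 0.10 with imipramine), and none passed. In stress against control Dusp1 (0.50 ± 0.11), Rgs4 (0.39 ± 0.24), Dusp6 (0.39 ± 0.12), Rxrg (0.38 ± 0.23), Rxra (0.29 ± 0.10), Cebpb (-0.23 ± 0.08) and Elk4 (0.20 ± 0.08) were among the largest of their lists, at adjusted p-values from 0.728 to 0.829.

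Cell type markers also differed in the agomelatine group. A list score is the mean over the tested genes of a list of the distance of an animal's log2 value from that gene's overall mean. The granule neuron score (5 of 10 markers tested) was between -0.35 and -0.24 in agomelatine animals, against -0.05 to 0.05 in stress, -0.04 to 0.14 in control and 0.03 to 0.15 in the other drug groups. All 5 markers were below 0 against each group, with 3 called lower against stress and against control and 5 against each of the other drugs. The oligodendrocyte score (12 of 14 tested) was between 0.42 and 0.72 in agomelatine animals and at most 0.04 in any other, and all 12 markers were above 0, with 11 or 12 called in each comparison. The score of pyramidal neurons of the CA fields (9 of 14 tested) was 0.42 and 0.39 in agomelatine 1 and 2 and 0.02 in agomelatine 3, against 0.33 in stress 3 and at most 0.02 in all other animals. The interneuron score (12 of 14 tested) was 0.09, 0.22 and -0.0032 in agomelatine 1, 2 and 3, against 0.26 in stress 3, the highest of all animals, and at most 0.11 in the rest. All 12 interneuron markers were above 0 in stress against control (median 0.14), with 0 called. The meninges score (10 of 12 tested) was 0.93, 0.24 and -0.16 in agomelatine 1, 2 and 3, against 0.56 in stress 1 and at most 0.13 in the rest, and 2 markers were called higher in agomelatine against the mean of the other 3 drugs. Arrays have no true 0, so that no marker can be called absent.

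The score of the 9 immediate early genes was 0.15, 0.17 and 0.15 in agomelatine animals 1, 2 and 3, against 0.07, -0.02 and 0.21 in stress and -0.09, -0.08 and 0.04 in control animals. Stress 3 had the highest score of all animals and the highest CA-field score outside the agomelatine group. A fit without agomelatine 1 and 2 and stress 3 leaves 1 agomelatine animal, so only an effect size is given. In that fit the difference of Nr4a2 in agomelatine against imipramine was 0.32, against 0.47 with all animals. The choroid plexus score (5 of 12 markers tested) was 3.38 in agomelatine 1 and 0.96 in stress 1 and at most -0.10 in the others. Without these 2 animals, 2 or 3 genes were called in agomelatine against control and each other drug. The share of all genes called in that fit is not given here, so this count is no result about the members as a set. Both sets of animals left out were chosen after seeing the data. The part of the granule neuron, oligodendrocyte, CA-field, interneuron, meninges and choroid plexus markers in these results was not tested.

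**Figure D4:**
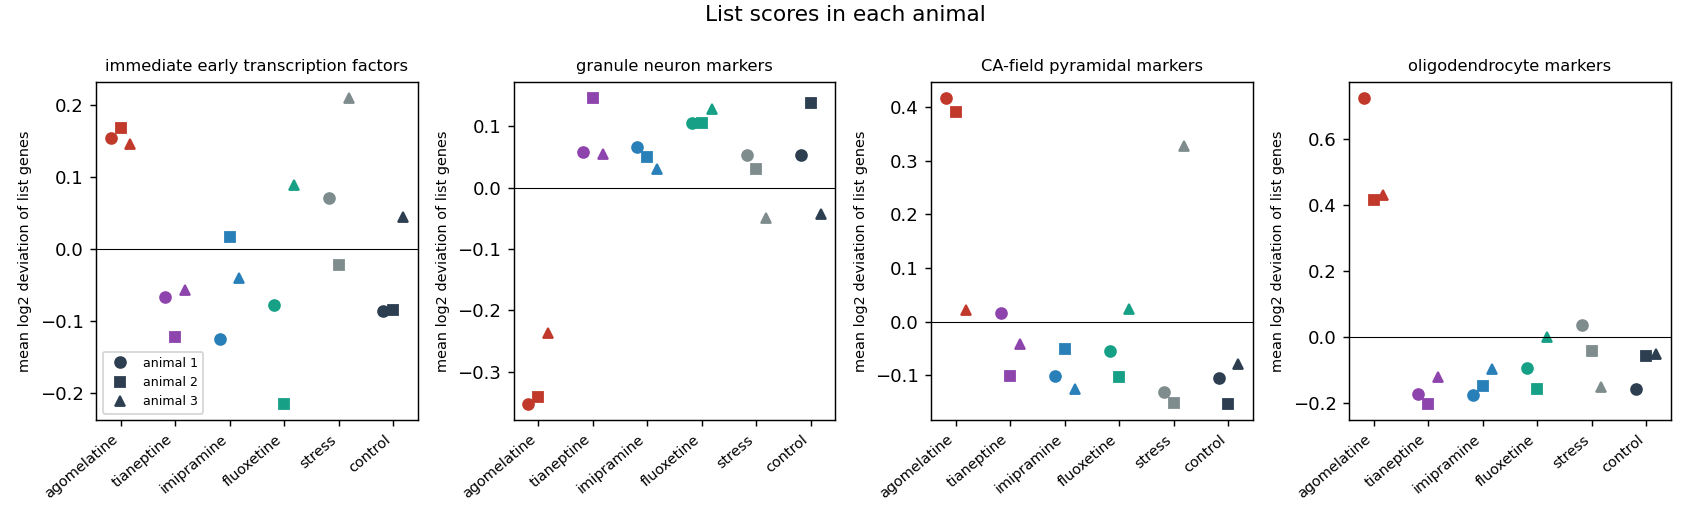
List scores (mean log2 deviation of a list's tested genes from their means over all animals) in each of the 18 animals, by group, for the 9 immediate early transcription factor genes and for markers of granule neurons, CA-field pyramidal neurons and oligodendrocytes. Agomelatine animals have the lowest granule neuron scores (-0.35 to -0.24) and the highest oligodendrocyte scores (0.42 to 0.72), and stress 3 stands with agomelatine 1 and 2 in the CA-field score.

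Across animals the 9 genes did not form one block. Over the 36 pairs the median Pearson r was 0.33 over all 18 animals and 0.41 after each group's mean was subtracted, with 14 and 16 pairs above 0.5 and 10 and 2 pairs below 0. The pair with the highest r was Nr4a1 and Nr4a2 (0.86, and 0.65 within groups). Egr3 had negative r with Nr4a1 (-0.17), Nr4a2 (-0.21) and Npas4 (-0.27) over all animals and positive r within groups (0.60, 0.51 and 0.25), and its group mean was lowest with agomelatine where theirs were highest. For Npas4 and Nr4a1 it was the reverse, with 0.61 over all animals and -0.04 within groups. Animals share their tissue pieces and arrays across all genes, so these r are descriptions and carry no p.

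**Figure D5:**
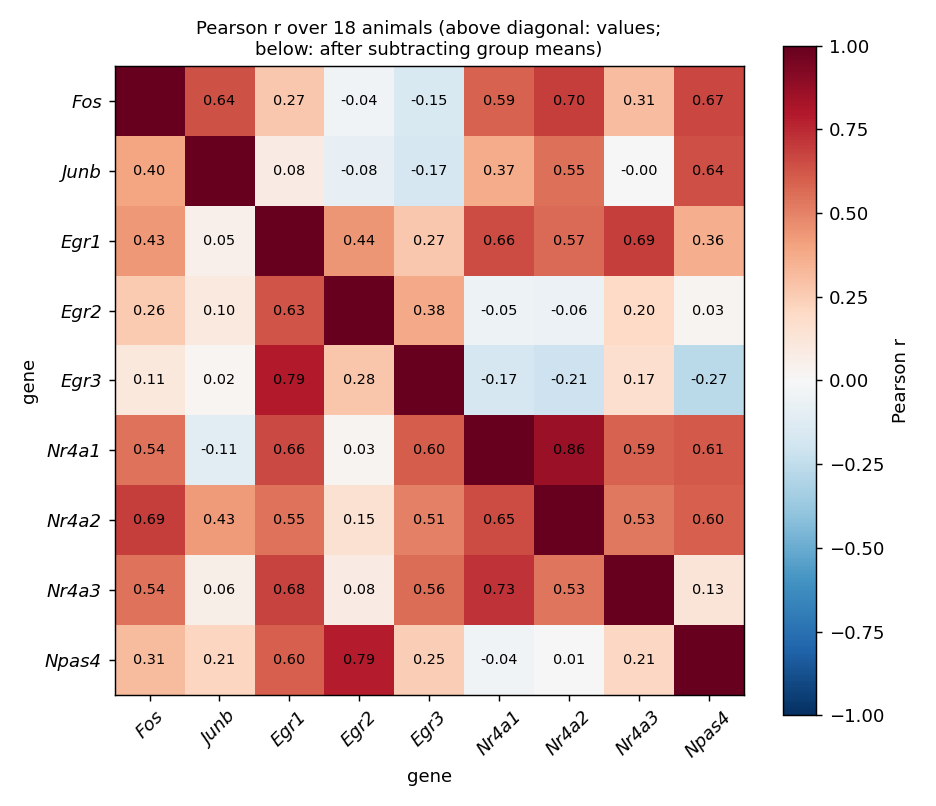
Pearson r between the 9 genes over 18 animals, above the diagonal from the log2 values and below it after each group's mean is subtracted. Nr4a1 and Nr4a2 have the highest value (0.86), and Egr3 changes from negative to positive r with Nr4a1, Nr4a2 and Npas4 when group means are removed.

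The tested genes whose pattern over the 18 animals was most like the mean of the 9 were Runx1t1, a transcriptional corepressor gene (r = 0.89), Flt3, a receptor tyrosine kinase gene (0.86), Enoph1 (0.85), the cadherin gene Fat3 (0.85), the kinesin gene Kif3c (0.85), Arc (0.83), Fkbp1b (0.83) and the transcription factor gene Sox5 (0.82). After group means were subtracted their r lay between 0.63 and 0.84. For single genes the closest were Smad2 for Nr4a2 (0.93), Auh for Npas4 (0.90), Flt3 for Nr4a1 (0.89), Zfp142 for Egr3 (0.88), Satb1 for Nr4a3 (0.86), Cit for Fos (0.86), Phyhipl for Egr1 (0.85), Bmp6 for Junb (0.80) and Acbd3 for Egr2 (0.75). These were picked as the highest of 10804 genes, so their r is no evidence of a link.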

How the data were processed

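RNA from the dentate gyrus of 18 rats was hybridised to 21 Affymetrix Gene ST arrays. The authors deposited log2 expression per probe set. Per the submitters' processing notes they ran RMA in version 1.2 of Affymetrix Expression Console. RMA corrects background, quantile-normalises and summarises probes, which compresses differences at low signal. The arrays' genome build and run dates are not given in the sources used here. Arrays give no read depth, so the number of animals limits precision.

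Of 29214 probe sets, 15310 had 1 symbol in the platform annotation, 323 several and 13581 none, and 15279 matched the RefSeq gene table of GRCr8, used for names only. Each gene was taken from its brightest probe set by overall mean, and genes below the 25th percentile (log2 7.165) were left out. Control arrays were averaged per animal. A linear model with a mean for each of the 6 groups, fitted with limma 3.58.1 (R 4.3.3, eBayes with trend, residual degrees of freedom 12), tested 17 comparisons, each adjusted by Benjamini-Hochberg over 10804 genes. The mean of tianeptine, imipramine and fluoxetine weights the 3 groups equally. The script was tested on simulated data. Replicate numbers are those of the labels, and p-values measure the spread between 3 animals a group.

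The members and lists were chosen with earlier results of these data known, and so were the naming rule and most alternatives. The rule named all members, called genes of the companion lists (at most 6 per direction), the 3 largest differences of each such list where stress is set against control or a drug against stress (some are printed), and the 8 genes most like the members' mean and the closest to each member. Alternatives covered the control arrays, the filter, the probe sets, array scaling, the variance model, array weights, the groups fitted, a replicate block and leaving out each animal. Leaving out the animals with high CA-field or choroid plexus scores was added after seeing the data.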

Additional observations from a re-analysis of the deposited data

Results flagged for a closer look

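The response to agomelatine, set against stress, differed from the mean response to tianeptine, imipramine and fluoxetine in 3 of the 9 genes by limma's test of that difference. Of all tested genes 19.1% were called by that test, 9.09% of them all being called higher. It was higher by 0.5488 for Nr4a1 (log2, adjusted p = 0.00135), by 0.5492 for Nr4a2 (adjusted p = 0.00176) and by 0.6611 for Npas4 (adjusted p = 0.000268). All 3 agomelatine animals lay above all 9 animals of the other drug groups for each gene, as in 5.55% of all genes. Agomelatine was given at 40 mg/kg and the other drugs at 10 mg/kg, in different vehicles, and drug, dose and vehicle cannot be told apart. The agomelatine animals also had lower granule neuron and higher oligodendrocyte scores, and the part of these scores in the difference was not tested.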

How the results depend on the processing

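Of 46 combinations of gene and comparison with an unadjusted p under 0.05, 15 were called and 31 were not, and 922 alternative values were computed. Of these values 883 kept their direction and side of the threshold, 34 lost a call, 5 gained one and 0 changed sign. Only the 15 called combinations could lose a call, so the 883 include uncalled ones that stayed uncalled. The 46 were picked for a small p, which makes a change of sign unlikely. Outside them signs did change, as for Egr1 in agomelatine against stress (6 of 19 alternatives). The main changes in the number of members called were these, and where no value shows it the cause was not tested. In stress against control it was 1 (Nr4a1) with the repeat control arrays alone, where 1.17% of all genes were called. In agomelatine against the 3 drugs together it was 4, with Fos added, with equal array medians (19.4% of all genes called) and with a second quantile normalisation (21.2%). With the filter at the 50th percentile only 5 members were still tested, and 1 (Nr4a2) was called in agomelatine against control, fluoxetine, imipramine, tianeptine and the 3 drugs together. In agomelatine against fluoxetine it was 0 in a fit on those groups alone, and in fluoxetine against imipramine it was 1 (Egr2) with array weights. The fit without the animals with a high CA-field score left 1 agomelatine animal, so no count is given for it. Leaving out 1 animal at a time gave 0 to 1 in agomelatine against stress (1 without stress 3), 1 to 3 in agomelatine against control, fluoxetine and imipramine, 3 in agomelatine against tianeptine and the 3 drugs together, and 0 in the other comparisons. The call of Npas4 in agomelatine against control, at an adjusted p of 0.0479, was the least stable and was kept in 7 of 20 alternatives. The call of Nr4a2 was kept in 12 of 19 alternatives in agomelatine against imipramine and in 13 of 19 in agomelatine against fluoxetine. With a replicate block 3 members stayed called in agomelatine against control, tianeptine, imipramine, fluoxetine and the 3 drugs together, and 0 in the others. Except where a share is printed, the share of all genes called in these alternatives is not given here. Those counts are therefore no result about the members as a set. The labels do not say whether animals with the same replicate number belong together. Deviations of animals with the same number correlated between -0.3 and 0.292, with 10 of 45 over 0.1. Animals with different numbers were not compared, so these values do not settle whether the numbers pair the animals. The share of all genes called in agomelatine against stress ran from 1.51% to 17.6% over the alternatives. Where a signal is near the filter, as for Egr2, a difference may be compressed.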
